A study of Mus musculus with 6 samples.

Results

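The genes *Sox10*, *S100b*, *Ngfr*, *Erbb3*, *Foxd3*, *Cdh19*, *Fabp7* and *Gfra3* mark Schwann cells and the neural crest cells they come from. They were followed in islet cells of newborn mice, in cells marked by a tracer of past *Wnt4* expression and in cells without that mark. The 8 genes are 8 of the 22908 genes with a symbol on the array. Their probes were found by gene name, through the RefSeq transcript to which each array probe was designed. The genes themselves were chosen with earlier results of these data known, so their counts are a description. Islets came from *Wnt4eGFPCre; mTmG* pups at postnatal day 1 (P1), from mice crossed to C57BL/6J. The *Wnt4eGFPCre* allele makes eGFP and Cre from the *Wnt4* locus, and *mTmG* is a reporter that turns from membrane tomato to membrane GFP (mGFP) for good once Cre has acted. Cells were sorted into an mGFP-positive population, Wnt4hi (3 arrays, replicates 2, 3 and 4), and an mGFP-negative population, Wnt4low (3 arrays, replicates 1, 3 and 4), and both populations carry both alleles. Each array holds the RNA of 1 pool, from 4 pups or, for both replicates numbered 4, from 3 pups. The tracer keeps a record of past *Wnt4* transcription in any islet cell and does not select a cell type, so both populations could hold endocrine, vascular, stromal and nerve cells.

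Schwann cells are the glia of peripheral nerves. They arise from the neural crest, a migratory population that also gives rise to peripheral neurons and melanocytes, and in the pancreas they lie along nerve fibres and around the islets. SOX10 and FOXD3 are transcription factors of the crest and its glial descendants. Glial precursors depend on neuregulin, which they sense through ERBB3 paired with ERBB2. NGFR is the low-affinity neurotrophin receptor p75, and GFRA3 is the receptor for artemin, which signals with RET. S100B, FABP7 and CDH19 are a calcium-binding protein, a brain-type fatty acid-binding protein and a cadherin of the Schwann cell lineage.

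Each array read 59305 spots that are not controls, with the RNA labelled in 1 colour after amplification of a very small input. Between 70.5% and 79.5% of spots were well above background in Wnt4hi and between 73.1% and 76.9% in Wnt4low. *Wnt4* itself was at 10.83 ± 0.34 log2 intensity in Wnt4hi and 9.76 ± 0.40 in Wnt4low (SD, n = 3 each), with no overlap between the populations. In bulk RNA of this kind, fewer cells of a type and less RNA per cell cannot be told apart. Intensities are given on the log2 scale after normalization between arrays, and they compare arrays for a gene, not genes with each other. A gene was called at an unadjusted p under 0.05 from limma's moderated test, which is the threshold of the study's methods, and p-values adjusted by the Benjamini-Hochberg method over all 45616 features are given beside it. The p-values measure the spread between pools, and an exact permutation test of 3 arrays against 3 cannot go below 0.1, two-sided.

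Of the 8 genes, *Ngfr* and *Fabp7* were lower in Wnt4hi, *Gfra3* was higher and the other 5 were not called. Among all features, 5.53% were called lower and 5.06% were called higher. The same 3 genes, 2 lower and 1 higher, had no overlap between the populations, where 6.44% of all features were separated in the lower direction and 9.63% in the higher. None of the 8 genes passed after adjustment, where 0.441% of all features did in either direction with limma. The median log2 difference, Wnt4hi minus Wnt4low, was −0.26 over the 8 genes and 0.07 over all features. Each gene was read by 1 probe, and for 6 of the 8 that probe stood well above background everywhere, *S100b* and *Cdh19* being the exceptions.

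**Figure D1:**
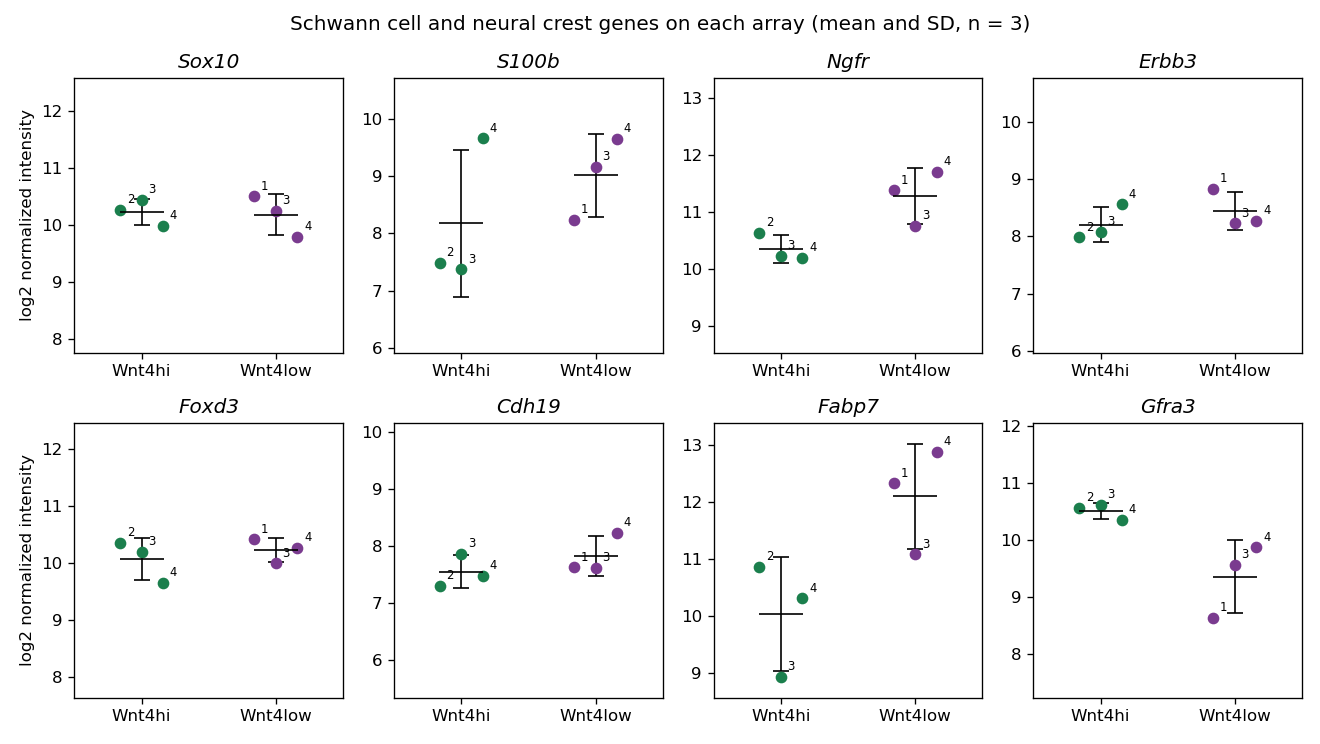
Log2 intensity of each of the 8 genes on each array (points) with the mean and SD of each population of 3 arrays. The populations do not overlap for *Ngfr* and *Fabp7*, which lie lower in Wnt4hi, or for *Gfra3*, which lies higher, and they overlap for the other 5.

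The readings of *Sox10* and *Foxd3*, transcription factors of the lineage, did not separate the populations. How much of each reading came from the gene itself was not tested. *Sox10* (chr15:79154913-79164490, GRCm38.p6) had log2 intensities of 10.26, 10.44 and 9.98 in Wnt4hi replicates 2, 3 and 4, and of 10.50, 10.25 and 9.79 in Wnt4low replicates 1, 3 and 4. The highest and the lowest value were both in Wnt4low. The difference was 0.05 on the log2 scale (SE 0.23), with a 95% interval from −0.51 to 0.60 and an unadjusted limma p of 0.844 (adjusted p = 0.970). *Foxd3* (chr4:99656299-99658671), which acts in the early crest and was also well above background on all 6 arrays, read 10.35, 10.20 and 9.65 in Wnt4hi and 10.41, 9.99 and 10.26 in Wnt4low. Only Wnt4hi replicate 4 lay below every Wnt4low array. The *Foxd3* difference was −0.16 (SE 0.23), with an interval from −0.71 to 0.40 and an unadjusted p of 0.520 (adjusted p = 0.881). The intervals of both genes leave room for a difference of 0.4 log2 units either way.

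*Erbb3* (chr10:128567523-128589635), the neuregulin receptor, read 7.98, 8.08 and 8.56 in Wnt4hi and 8.84, 8.23 and 8.27 in Wnt4low. The populations overlapped. The difference was −0.24 (SE 0.24), with a 95% interval from −0.83 to 0.35 and an unadjusted limma p of 0.366 (adjusted p = 0.822). In the normalized table the authors deposited, the *Erbb3* difference was −0.74 with an unadjusted p of 0.0196. That row carries the same probe name but holds other levels than the scanner file, and how it was made is not known, so it may not be the same reading.

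*Ngfr* (chr11:95568818-95587698) was lower in Wnt4hi. Its log2 intensity was 10.63, 10.23 and 10.20 on the Wnt4hi arrays and 11.38, 10.75 and 11.70 on the Wnt4low arrays. Every Wnt4hi array lay below every Wnt4low array, with a gap of 0.12 between the nearest pair, Wnt4hi replicate 2 and Wnt4low replicate 3. The means were 10.35 ± 0.24 and 11.28 ± 0.49 (SD, n = 3 each). The difference was −0.93 (SE 0.28), a fold of 1.90, with a 95% interval from −1.60 to −0.25 and an unadjusted limma p of 0.0149 (adjusted p = 0.295).

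*Fabp7* (chr10:57784923-57788450), a marker of Schwann cell precursors and of glia, had the largest difference of the 8 genes. It read 10.87, 8.94 and 10.31 in Wnt4hi and 12.33, 11.08 and 12.88 in Wnt4low. The spread within each population was wide, and Wnt4hi replicate 2 and Wnt4low replicate 3 came within 0.22 of each other without overlapping. The means were 10.04 ± 0.99 and 12.10 ± 0.92 (SD, n = 3 each). The difference was −2.06 (SE 0.64), a fold of 4.16, with a 95% interval from −3.61 to −0.50 and an unadjusted limma p of 0.0175 (adjusted p = 0.314). This call was lost without Wnt4low replicate 1 (−1.94, unadjusted p = 0.0519) or without Wnt4low replicate 4 (−1.67, unadjusted p = 0.0591).

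Promoter sequence was at hand for 4 of the 8 genes, and the pair that was lower in Wnt4hi is shown. The 250 bases before the start of each gene are given 5′ to 3′ on the gene's strand, from RefSeq on GRCm38.p6. They were searched on both strands for ACAAT and ACAAAG, core letters bound by SOX factors, and for TGGGAA, the core letters bound by RBPJ, the DNA-binding partner of Notch, and capitals mark the matches. The *Fabp7* stretch is chr10:57784673-57784922 on the plus strand and the *Ngfr* stretch is chr11:95587699-95587948 on the minus strand.
Fabp7: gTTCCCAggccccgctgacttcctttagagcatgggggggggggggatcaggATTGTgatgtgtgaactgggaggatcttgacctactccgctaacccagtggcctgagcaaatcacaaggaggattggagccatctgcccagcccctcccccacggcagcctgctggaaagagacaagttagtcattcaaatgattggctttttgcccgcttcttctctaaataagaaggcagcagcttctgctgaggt
Ngfr: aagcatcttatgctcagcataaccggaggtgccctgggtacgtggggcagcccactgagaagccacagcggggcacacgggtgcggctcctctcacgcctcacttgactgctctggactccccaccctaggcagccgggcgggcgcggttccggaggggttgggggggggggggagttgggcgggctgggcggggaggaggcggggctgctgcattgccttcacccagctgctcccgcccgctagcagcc
*Fabp7* held 1 ACAAT, 194 bases before its start, and 1 TGGGAA, 244 bases before it, each on the opposite strand, and *Ngfr* held none of the 3 motifs. Among 27025 promoters of the same length, 28.3% held ACAAT, 16.5% held ACAAAG and 21.5% held TGGGAA, so these letters are common. *S100b* held 1 TGGGAA and *Foxd3* held no match.

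*S100b* (chr10:76253836-76261319), the calcium-binding protein most used to stain Schwann cells, varied more between arrays of Wnt4hi than any other of the 8 genes. It read 7.49, 7.37 and 9.67 in Wnt4hi and 8.23, 9.17 and 9.66 in Wnt4low. Wnt4hi replicates 2 and 3 lay below every Wnt4low array, while Wnt4hi replicate 4 stood level with the highest of them, and the probe was not well above background on Wnt4hi replicate 2. The difference was −0.85 (SE 0.70), with a 95% interval from −2.55 to 0.85 and an unadjusted limma p of 0.271 (adjusted p = 0.771). The value rested on single arrays: it was −1.59 without Wnt4hi replicate 4, with an unadjusted p of 0.0144, but −0.50 without Wnt4hi replicate 2, −0.44 without Wnt4hi replicate 3 and −0.53 without Wnt4low replicate 4, none of them called. In the deposited table it was −0.23 (unadjusted p = 0.739). *Cdh19* (chr1:110888002-110977601), the cadherin, read 7.30, 7.86 and 7.48 in Wnt4hi and 7.62, 7.62 and 8.24 in Wnt4low, and was well above background on only 1 of the 3 Wnt4hi arrays. Its difference was −0.28 (SE 0.24), with a 95% interval from −0.87 to 0.31 and an unadjusted limma p of 0.290 (adjusted p = 0.782).

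*Gfra3* (chr18:34689898-34720387) went the other way and was higher in Wnt4hi. It read 10.56, 10.61 and 10.35 in Wnt4hi and 8.64, 9.57 and 9.87 in Wnt4low. The Wnt4hi arrays lay close together while the Wnt4low arrays were spread out, and the nearest arrays of the populations were 0.48 apart. The means were 10.51 ± 0.14 and 9.36 ± 0.64 (SD, n = 3 each). The difference was 1.15 (SE 0.33), a fold of 2.21, with a 95% interval from 0.35 to 1.94 and an unadjusted limma p of 0.0120 (adjusted p = 0.267).

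**Figure D2:**
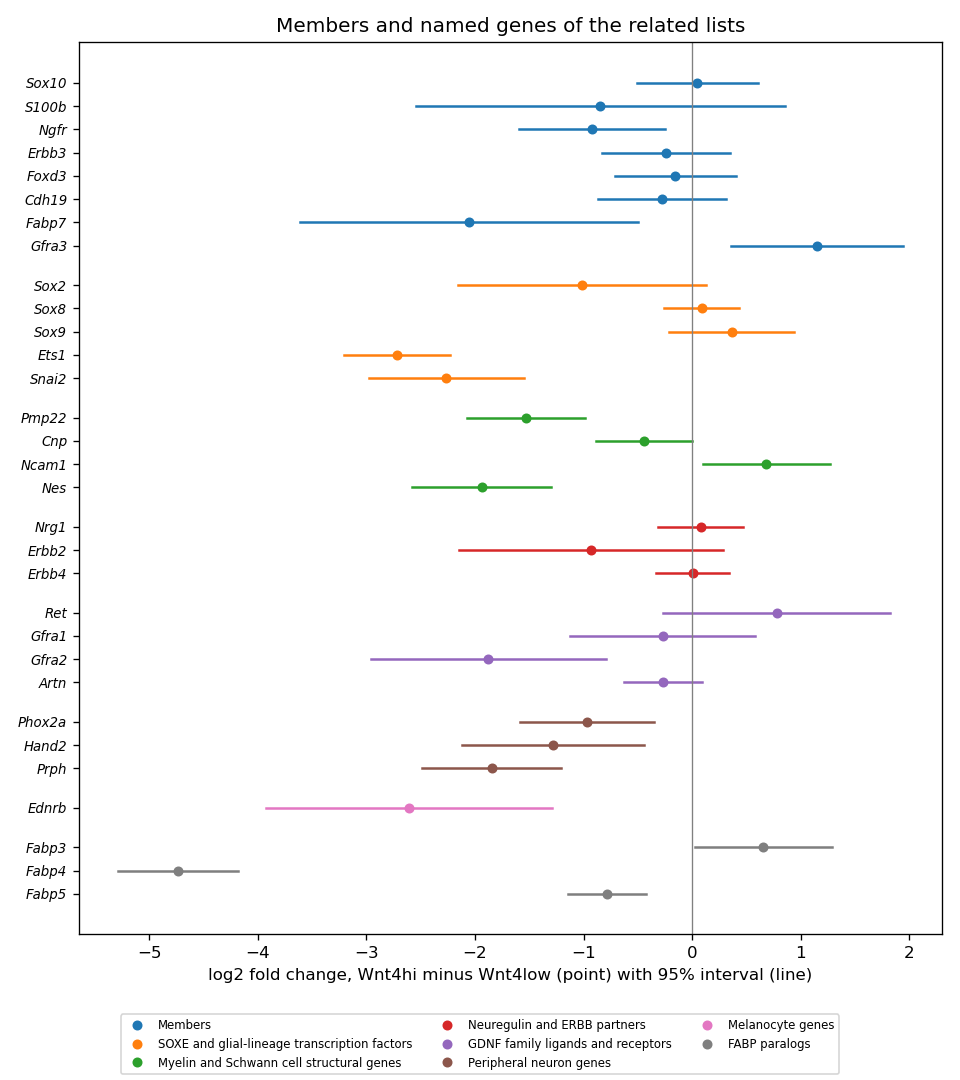
Log2 difference, Wnt4hi minus Wnt4low, of the 8 genes and of the named genes of related lists (points) with 95% intervals (lines), coloured by list. *Fabp7* at −2.06 and *Ngfr* at −0.93 lie to the left of 0 and *Gfra3* at 1.15 to the right, each with an interval that leaves out 0.

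The glial and crest transcription factors around *Sox10* and *Foxd3* were mostly not called. Of 19 such genes, 3 were lower in Wnt4hi and none was higher, with a median difference of −0.13 against 0.07 over all features. *Ets1*, which acts in crest and also in endothelial and lymphoid cells, was at 9.59 ± 0.31 in Wnt4hi and 12.31 ± 0.18 in Wnt4low, a difference of −2.72 (limma adjusted p = 0.0195), and its other probe gave −3.91. *Snai2*, a factor of migrating crest and of mesenchyme, was at 9.55 ± 0.20 and 11.82 ± 0.54, a difference of −2.26 (adjusted p = 0.0498). The relatives of *Sox10* were not called, with differences of 0.09 for *Sox8*, whose other probe gave −0.41, and 0.37 for *Sox9*, whose other probe gave 0.53. *Sox2*, which marks immature Schwann cells, was well above background on none of the Wnt4hi arrays and on 1 Wnt4low array.

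Of 19 myelin and structural genes of Schwann cells, 5 were lower in Wnt4hi, 1 was higher and 13 were not called, with a median difference of −0.02. *Pmp22*, a myelin protein that fibroblasts and endothelium also make, was at 9.72 ± 0.15 in Wnt4hi and 11.25 ± 0.39 in Wnt4low, a difference of −1.53 (limma adjusted p = 0.0667), and its other probe gave −2.11. *Nes*, the intermediate filament nestin of progenitors, pericytes and endothelium, differed by −1.94 (adjusted p = 0.0575), and *Cnp*, a myelin enzyme, by −0.44 (adjusted p = 0.472). *Ncam1*, an adhesion molecule that endocrine cells also carry, was the higher one, with a difference of 0.68 (adjusted p = 0.383), and its other probes ran from 0.24 to 1.75.

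The partners of the receptors were mostly not called. None of 7 neuregulin and ERBB genes was called in either direction with limma at the unadjusted threshold, and their median difference was −0.012. *Erbb2* had every Wnt4hi array below every Wnt4low array, with a difference of −0.93 (−0.53 on its other probe) and an unadjusted p of 0.110, *Nrg1* had a difference of 0.08, and *Erbb4* never rose well above background. Of 8 genes of the GDNF family, 1 was lower and none was higher. That gene was *Gfra2*, the neurturin receptor and a relative of *Gfra3*, at 9.36 ± 0.74 in Wnt4hi and 11.23 ± 0.56 in Wnt4low, a difference of −1.88 (limma adjusted p = 0.188), with −0.61 on its other probe. *Ret*, the signalling partner of both, had a difference of 0.78 (unadjusted p = 0.118), *Gfra1* of −0.27 (−0.022 on its other probe) and *Artn*, the ligand of GFRA3, of −0.27, and none of these was called. None of 9 neurotrophin genes was called in either direction with limma at the unadjusted threshold, and their median difference was 0.12.

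Other derivatives of the crest showed a few calls. Of 10 peripheral neuron genes, 4 were lower in Wnt4hi and none was higher. *Phox2a*, a factor of autonomic neurons, differed by −0.97 (limma adjusted p = 0.227), *Hand2*, which is also active in mesenchyme, by −1.28 (adjusted p = 0.244), and *Prph*, the neuronal filament peripherin, by −1.85 (adjusted p = 0.0631), with −0.40 on the other probe of *Prph*. Of 8 melanocyte genes, 1 was lower. It was *Ednrb*, an endothelin receptor of crest cells and of endothelium, at 9.54 ± 0.59 and 12.15 ± 0.97, a difference of −2.61 (adjusted p = 0.141), and its other probes gave −1.85 and −1.47.

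Of 6 paralogs of *Fabp7*, 2 were lower and 1 was higher. *Fabp4*, of capillary endothelium and adipocytes, was at 8.03 ± 0.39 in Wnt4hi and 12.76 ± 0.17 in Wnt4low, a difference of −4.73 (limma adjusted p = 0.0140), and its other probe gave −1.52. *Fabp5* differed by −0.78 (adjusted p = 0.114) and *Fabp3* by 0.66 (adjusted p = 0.452), with 1.11 on the other probe of *Fabp3*.

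Markers of other cells were also lower in Wnt4hi, beside *Ngfr* and *Fabp7*. Of 14 endothelial markers, 13 were lower in Wnt4hi, with mean log2 intensities over the list from 8.40 to 8.87 on the Wnt4hi arrays and from 11.37 to 12.46 on the Wnt4low arrays, and *Tek* and *Tie1* stood well above background on none of the Wnt4hi arrays. Of 12 pericyte and mesenchyme markers, 8 were lower, with list means from 10.63 to 11.95 and from 12.30 to 12.58, and all were well above background on at least 1 array. Of 12 leukocyte markers, 7 were lower, with list means from 9.20 to 9.87 and from 10.43 to 10.74. The list of peripheral neuron genes ran from 8.58 to 8.98 and from 9.21 to 9.54. The part of these cells in the differences of *Fabp7* and *Ngfr* was not tested.

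In the other direction, 6 of 10 beta cell markers were higher in Wnt4hi and none was lower, with list means from 13.72 to 13.93 on the Wnt4hi arrays and from 12.03 to 13.39 on the Wnt4low arrays. Of 7 alpha and delta cell markers, 2 were higher and 2 were lower, with list means from 12.14 to 13.00 and from 10.72 to 12.14. Wnt4low replicate 1 had the lowest value of *Gfra3* and also the lowest mean of both endocrine lists. Between Wnt4low replicates 3 and 4, *Gfra3* rose from 9.57 to 9.87 and the alpha and delta list mean from 12.06 to 12.14. The beta cell list mean fell from 13.39 to 12.65 between the same arrays. The part of endocrine cells in the difference of *Gfra3* was not tested.

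**Figure D3:**
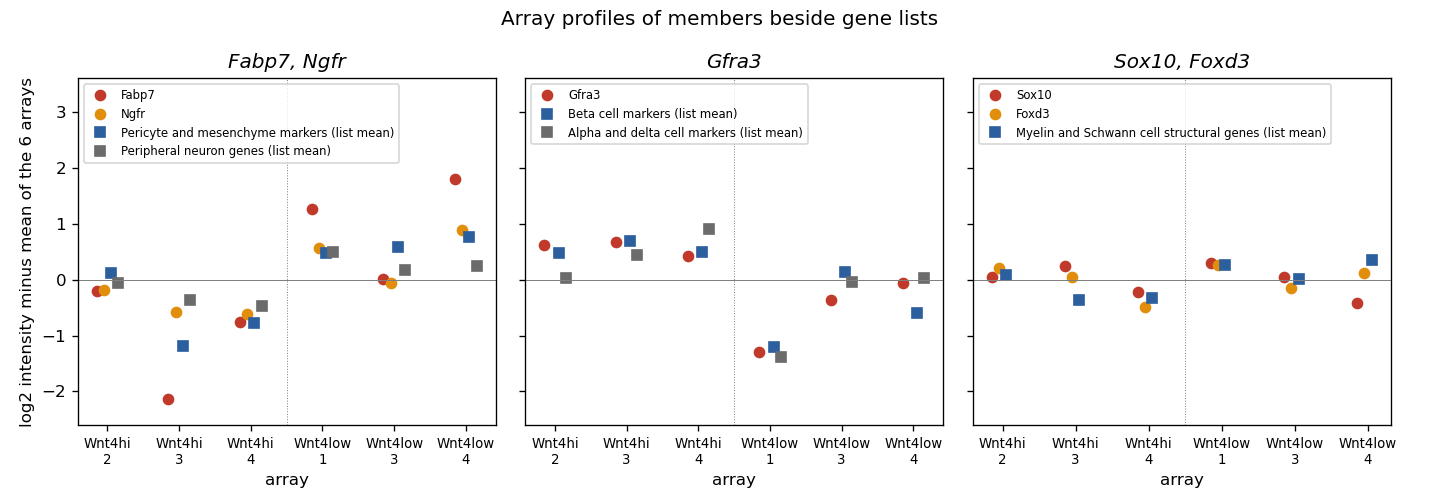
Log2 intensity on each array minus the mean over the 6 arrays, for single genes (circles) and for the mean of a gene list (squares). *Fabp7* and *Ngfr* lie lower in Wnt4hi beside the mesenchyme and neuron lists, *Gfra3* lies higher beside the endocrine lists, and *Sox10* and *Foxd3* overlap between the populations.

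*Ngfr* and *Gfra3* were called in all 21 alternatives that were run. Differences ran from −1.19 to −0.71 for *Ngfr* and from 0.76 to 1.40 for *Gfra3*. The ends of these ranges came from leaving out an array or from blocking by replicate number, not from the processing. Each gene had 1 probe, so the alternatives for probe choice could not move its difference. *Fabp7* was called in 18 of the 21.

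**Figure D4:**
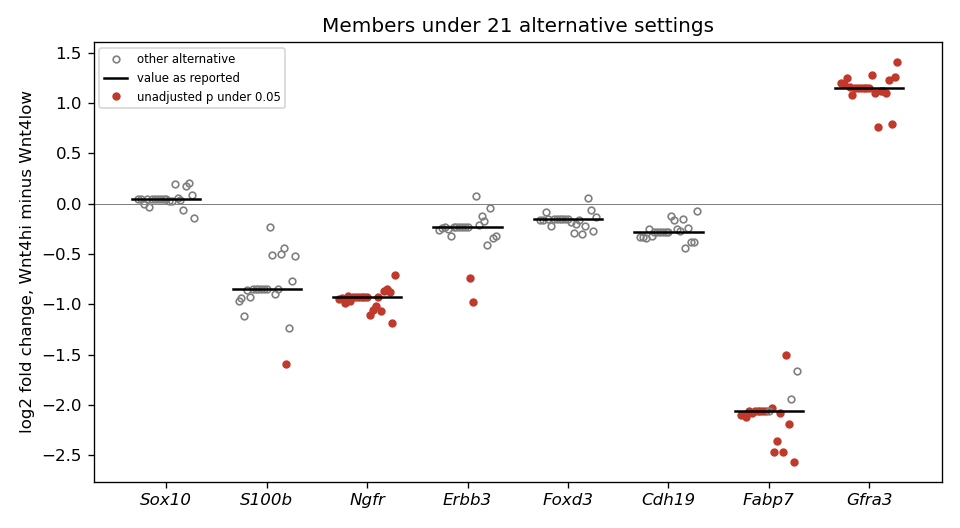
Log2 difference, Wnt4hi minus Wnt4low, of each of the 8 genes under each alternative, including those that left out an array (filled points: unadjusted p under 0.05, lines: the value as reported). *Ngfr* stays between −1.19 and −0.71 and *Gfra3* between 0.76 and 1.40, while *Sox10* lies on both sides of 0.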

How the data were processed

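RNA of 3 Wnt4hi and 3 Wnt4low pools was amplified as cDNA, and the labelled cDNA was hybridised to 1-colour Agilent arrays on 1 slide. The authors deposited scanner intensity values, made with Agilent Feature Extraction (version 9.1 per the labels, while the file headers name a later one). A second table deposited by the authors holds log2 values they had normalized, and how its rows were chosen or averaged is not given in the sources used here. From the median spot and background intensity, log2 values were computed in R 4.3.3 with limma 3.58.1: normexp background correction (offset 50), outlier spots left out (none on the 8 genes), quantile normalization, and the mean of the spots of a probe. Of 35886 probes with RefSeq-type names, 32994 matched a gene in RefSeq on GRCm38.p6, and a gene with several probes was read from the one with the highest mean. Wnt4hi was compared with Wnt4low by lmFit and eBayes over 45616 features, and the script was tested on simulated data. Intervals are 95%. Precision is limited by there being 3 arrays a population. The 8 genes and the related lists were chosen with earlier results of these data known. Of the lists, genes were named that were called, did not overlap and were well above background on every array of the higher population, plus a fixed set of receptors, ligands and factors named whatever their values, some of which are not reported here. The alternatives changed the background correction, normalization, filter on dim probes, probe choice and test, used the deposited table or replicate blocks, or left out an array. The deposited table without Wnt4hi replicate 2 was added after seeing the data.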

Additional observations from a re-analysis of the deposited data

How the results depend on the processing

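Across 21 alternatives, *Gfra3* stayed the 1 gene called higher. The count called lower was 2, but 3 in the deposited table with or without Wnt4hi replicate 2 and 1 with the methods' t-test, where *Fabp7* had an unadjusted p of 0.0578, and it ran from 1 to 3 when an array was left out (1 without Wnt4low replicate 1 or 4, 3 without Wnt4hi replicate 4). The median of the 8 genes lay between −0.41 and −0.21. *Sox10* turned to −0.0055 with the processed intensity and −0.032 with cyclic loess, and ran from −0.15 to 0.21 without 1 array; *Foxd3* ran from −0.30 to 0.053. *Erbb3* turned to 0.072 with a fixed replicate block. The causes were not tested. Replicates 3 and 4 exist in both populations, but deviations of same-numbered arrays correlated at −0.03 and 0.16, and whether they hold cells of the same pups is not known; with the fixed replicate block *Fabp7* was at −2.36, *Ngfr* at −1.01 and *Gfra3* at 0.76, and the counts stayed at 2 and 1. Over all features, 201 passed adjustment, 508 with a filter on dim probes, 0 with the methods' t-test or the fixed block, and 0 to 9 without 1 array. The deposited column of Wnt4hi replicate 2 correlated with its own scanner values at 0.27, against 0.84 to 0.87 for the other arrays.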

Other observations

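The 5 features whose array profile lay nearest to the median profile of the 8 genes, by root mean square distance of centred log2 values over the 6 arrays among 31988 features, were *Myl6* (0.052), *Ctsa* (0.056), *Adamtsl2* (0.057), XR_140431 (0.059) and *Myd88* (0.063). Neighbours of single genes were looked up after their values were seen, among 17660 genes. *Chl1* (0.183) and *Pcdh20* (0.212) were nearest to *Fabp7*, *Ralb* (0.067) and *Dusp6* (0.085) to *Ngfr*, and *Epb41l3* (0.115) and *Dop1b* (0.116) to *Gfra3*.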
